A study of Mus musculus with 10 samples.

Results

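Chaperones are the proteins that help other proteins fold, refold or stay unfolded until they reach their place in the cell. The genes described here are 91 of the 16251 genes of the read-count table of the knockdown experiment. They were chosen by symbol: the Hsp70, Hsp90, Hsp60 and Hsp10, Hsp110 and small heat shock families, the J-domain (Dnaja, Dnajb, Dnajc) families, the chaperonin subunits, the protein disulfide isomerases named Pdia, and Tcp1, Canx, Calr, Hyou1, Sdf2l1, Creld2, Manf, Herpud1, Xbp1 and Hsf1. The rule uses no measured value. By the place where each protein works, 46 were put in the cytosol and nucleus, 28 in the endoplasmic reticulum (ER), 10 in the mitochondrion and 7 in other or uncertain places. The cells were mouse primary lymphatic endothelial cells, the cells that line lymphatic vessels. In 5 samples they had been transfected with 50 nM of siRNA against Vegfr2, the VEGF receptor encoded by Kdr, and collected 48 h later. The 5 control samples were also labelled 48 h. What the control cells received is not in the labels, and neither is whether the samples of a group were separate cultures. The p-values rest on the spread within each set of 5 samples, and that spread may be only technical. All values are bulk polyadenylated RNA, in which a change in the RNA of each cell and a change in the mix of cells cannot be told apart.

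The Hsp70 and Hsp90 families bind exposed stretches of unfolded proteins in cycles driven by ATP, J-domain proteins deliver clients to Hsp70 and start its ATP hydrolysis, and chaperonins enclose a protein in a barrel. Each compartment has its own set: HSP90 and the ring-shaped chaperonin CCT in the cytosol, BiP (Hspa5), GRP94 (Hsp90b1), the lectins calnexin and calreticulin and the disulfide isomerases in the ER, and HSP60 (Hspd1), HSP10 (Hspe1) and mortalin (Hspa9) in the mitochondrion. Endothelial cells make matrix proteins and glycosylated receptors, which fold in the ER. An unfolded protein response raises the ER set, HSF1 raises the cytosolic set under heat or other stress, and ATF4 and ATF5 are among the factors tied to the mitochondrial set.

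The targeted gene, Kdr, had 1328, 1320, 1280, 1259 and 1431 counts per 1000000 (CPM) in control replicates 1 to 5 and 190.8, 196.3, 200.5, 173.4 and 166.6 CPM in siRNA replicates 1 to 5. The siRNA libraries held 14.0% of the control level (log2 fold change -2.83, adjusted p = 3.15e-11 by edgeR's quasi-likelihood test, with an SE of 0.0595). Library totals were 17946483 to 18239260 counts. The knockdown went with a wide change of the transcriptome, in which 8668 of 12161 tested genes passed an adjusted p of 0.05. Lymphatic markers had summed levels of 17110 to 18700 CPM in control and 11620 to 12630 CPM in siRNA libraries, with 9 of 10 lower and 1 higher, and pan-endothelial markers, Kdr included, 7441 to 7649 and 5284 to 5509 CPM, with 8 of 10 lower and 1 higher. Markers of myeloid cells (5 of the 10 listed were in the table) summed to 42.53 to 50.4 CPM in control and 30.32 to 41.0 CPM in siRNA libraries. Nearly all of that sum was Cd68, the only tested gene, which was lower (means of 44.7 and 34.0 CPM). Csf1r, Itgam, Fcgr3 and Aif1 had means of at most 0.61 CPM. Markers of fibroblasts and mural cells (10 of 10) summed to 12.92 to 18.67 and 13.77 to 16.21 CPM, with 1 of 4 tested genes higher and 1 lower. Epithelial markers (5 of 7) summed to 1.223 to 2.517 and 7.68 to 8.726 CPM, with the only tested gene, Krt18, higher. No listed marker in the table was at 0 in all libraries, and the part of these markers in the changes of the chaperone genes was not tested.

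Chaperone RNA made up more of the counts after the knockdown in the cytosol, ER and mitochondrion, with the highest ratio for the mitochondrion. The 91 genes together held 1.399, 1.366, 1.394, 1.384 and 1.374% of all counts in control replicates 1 to 5 and 1.591, 1.612, 1.614, 1.597 and 1.643% in siRNA replicates 1 to 5. The groups did not overlap. The mitochondrial genes went from 0.0589% ± 0.00146 to 0.0958% ± 0.00278 of counts (SD, n = 5 each), a ratio of 1.62. The ER genes went from 0.528% ± 0.00600 to 0.612% ± 0.00552, a ratio of 1.16, and the cytosolic genes from 0.746% ± 0.0108 to 0.847% ± 0.0132, a ratio of 1.14.

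Of the 91 genes, 81 passed the filter on low counts and were tested. After the knockdown 48 rose (59.3%) and 17 fell (21.0%), by edgeR's quasi-likelihood test adjusted over all genes, against 36.1% of all tested genes higher and 35.2% lower. In 43 of the 81 every siRNA library was above every control library and in 15 every one was below, against 28.8% and 28.2% of all tested genes. When the test asked for a level more than 25% above the other group's, 17 members rose and 8 fell, against 10.6% and 12.3% of all tested genes, so most of the changes were small. The median log2 fold change of the 81 was 0.16 (quartiles -0.04 and 0.35), beside -0.0019 for all genes (quartiles -0.23 and 0.21). By compartment, 7 of 10 mitochondrial members rose and 2 fell (median 0.31), 17 of 26 ER members rose and 5 fell (median 0.16), and 21 of 39 cytosolic members rose and 8 fell (median 0.15, or 0.11 without control replicate 4 and 0.10 without siRNA replicate 1). The other 10 members did not pass the filter. These were Cct6b, Cct8l1, Dnajb3, Dnajb7, Dnajb8, Dnajb13, Dnajc6, Dnajc22, Hspb9 and Pdia2, and the highest sums over 5 libraries among them were 37 counts in control and 20 in siRNA libraries, for Hspb9, a small heat shock gene best known from testis.

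**Figure D1:**
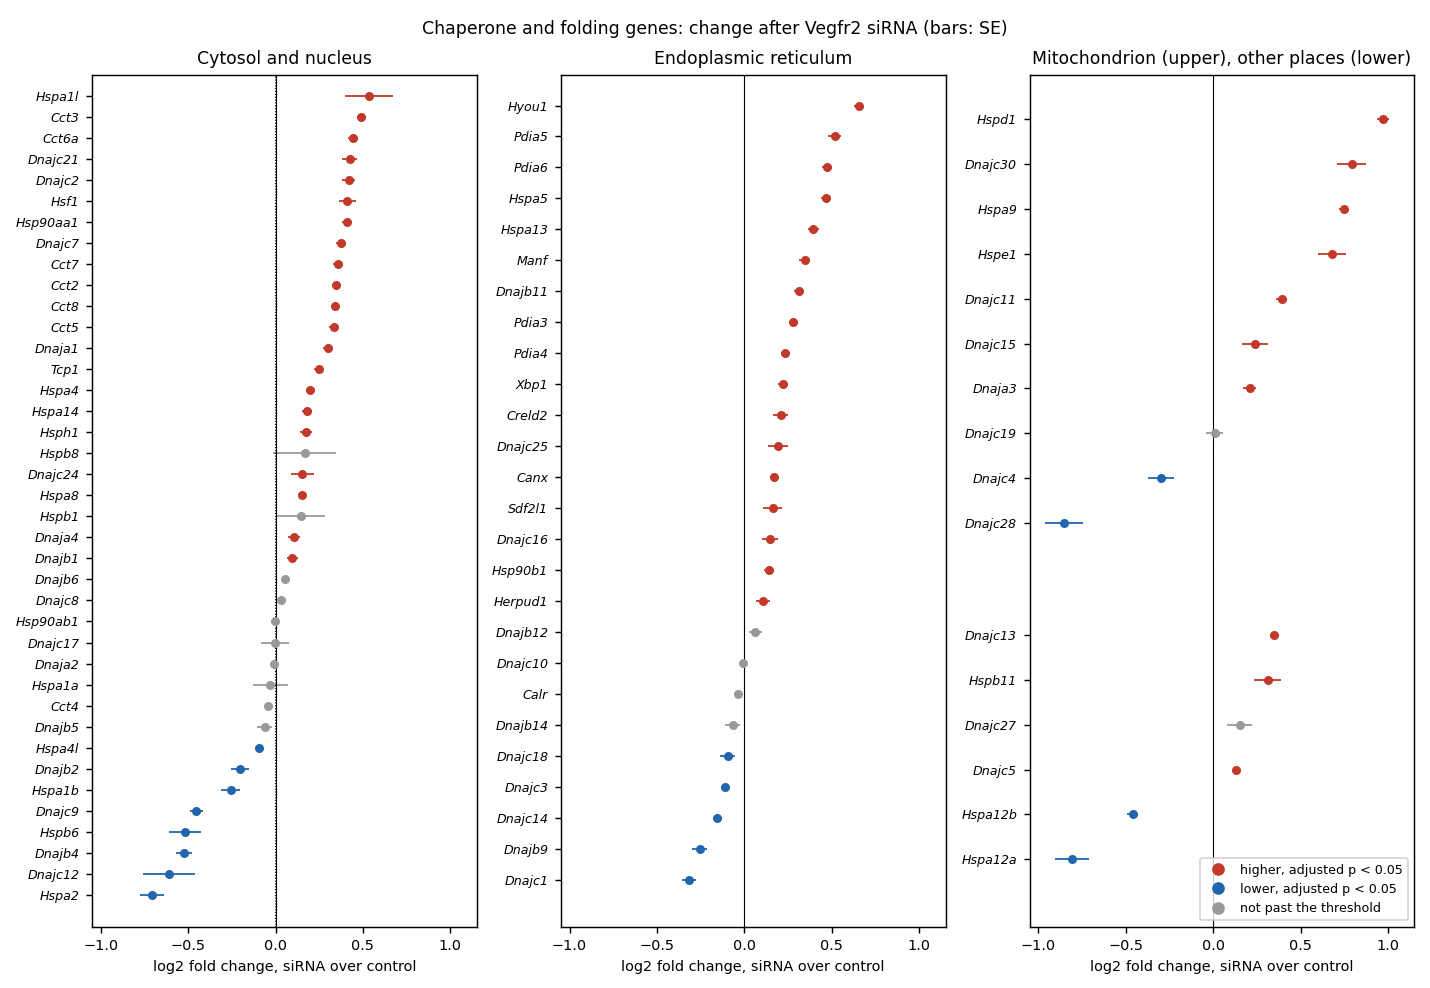
Log2 fold change (siRNA over control, horizontal axis) of the 81 tested chaperone genes, 1 point per gene with its SE as a bar, by compartment, in red where higher, in blue where lower and in grey where not past the threshold. Hspd1 at 0.97 is the highest and Dnajc28 at -0.85 the lowest, and red points outnumber blue ones in each compartment.

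The 48 higher members were not highest evenly over the siRNA libraries. The highest siRNA value was in siRNA replicate 5 for 24 of them, in replicate 2 for 10, in replicate 3 for 6, in replicate 1 for 5 and in replicate 4 for 3. Replicate 5 was also the library with the lowest Kdr (166.6 CPM), and it held the highest siRNA value of 34.0% of all genes called higher. Replicate 4, with the fewest such members, had a Kdr of 173.4 CPM, and replicate 2, with 10, had 196.3 CPM. Whether these counts follow the level of Kdr was not tested. With replicate 5 left out, 47 members rose and 16 fell.

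In the mitochondrion the matrix chaperones HSP60, HSP10 and mortalin all rose. Hspd1 (gene ID 15510, chr1:55077833-55088243, GRCm38.p6) encodes HSP60, the barrel in which imported matrix proteins fold. It had 149.4, 139.1, 151.4, 146.4 and 146.9 CPM in the control libraries and 264.4, 294.3, 291.8, 277.2 and 310.8 CPM in the siRNA libraries. The lowest siRNA library was well above the highest control library, and the rise was 1.96-fold (log2 0.97, SE 0.0352, adjusted p = 6.54e-17). Of all tested genes, 2.08% had a higher log2 fold change. Hspe1 (gene ID 15528, chr1:55088148-55091317) encodes HSP10, the lid of that barrel. It had 34.5, 41.1, 47.5, 46.4 and 43.2 CPM in the control libraries and 67.8, 62.6, 69.2, 68.0 and 72.9 CPM in the siRNA libraries. It rose by 0.68 on the log2 scale (SE 0.0786, adjusted p = 2.24e-05). Hspa9, mortalin, the Hsp70 that pulls proteins through the import channel, had 254.2, 240.4, 254.4, 263.0 and 245.6 CPM in the control libraries and 405.3, 422.4, 425.9, 421.4 and 433.6 CPM in the siRNA libraries. It rose 1.68-fold (log2 0.75, SE 0.0255, adjusted p = 1.81e-27).

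Hspd1 and Hspe1 are read in opposite directions, and their annotated spans overlap at their starts. A heat shock element, the word bound by HSF1, lies before the start of Hspe1 and inside the annotated span of Hspd1, 126 bases before a further start that RefSeq gives Hspd1. It is shown because both genes whose windows share it rose. RefSeq's promoter table for GRCm38.p6 gives windows of 300 bases, from 250 bases before a start, for 75 of the 91 members (94 windows) among 32851 windows of 27025 genes. The word searched on both strands was 3 units of GAA and TTC in turn, each 2 bases from the next. On the strand of Hspe1, with the overlapping matches in capitals, chr1:55088059-55088076 reads as follows.
Hspe1 and Hspd1: ccgTTCTAGAACCTTCCGGAAggc
The first match ends 76 bases before the start of Hspe1 and shares units with the second. The word was in 0.603% of all windows and in 4 member genes: Hspd1, Hspe1, Dnajb6 and Hsph1. Hsph1, the cytosolic HSP110, rose by 0.17, and Dnajb6, which keeps polyglutamine proteins soluble, was at 0.06 (adjusted p = 0.0516). Over the 50 tested genes with the word that are not chaperone members, 20 rose and 19 fell, with a median of -0.01. Of all tested genes, 36.1% rose and 35.2% fell.

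The J-domain partners of the mitochondrion were mixed, with 4 of 7 higher (57.1%) and 2 lower (28.6%), against 36.1% and 35.2% of all tested genes. Dnaja3 (TID1), the main J-domain partner of mortalin, went from 44.5 ± 1.33 to 51.4 ± 1.52 CPM (log2 0.21, adjusted p = 2.92e-06). Dnajc11, a protein tied to the organization of the cristae, rose from 54.3 ± 1.51 to 71.2 ± 1.82 CPM (log2 0.39). Dnajc15, of the inner membrane, rose from 8.68 to 10.2 CPM (log2 0.24), and Dnajc19, its relative at the import motor, had 21.6 and 21.7 CPM (log2 0.01, adjusted p = 0.885). Dnajc30, which associates with the ATP synthase, had 5.28 to 7.63 CPM in control and 9.82 to 11.2 CPM in siRNA libraries (log2 0.79, adjusted p = 2.48e-11). That value is uncertain, since 26.2% of its exonic bases overlap Bud23 and its counts were fractional in all 10 libraries. Dnajc28 fell in every library, with 6.43, 6.17, 5.84, 5.80 and 5.16 CPM in the control libraries and 3.67, 3.18, 3.62, 3.40 and 2.37 CPM in the siRNA libraries (log2 -0.85, SE 0.111, adjusted p = 4.90e-09). It was the lowest fold change among the 81 genes. Dnajc4 fell from 9.77 to 7.94 CPM (log2 -0.30).

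**Figure D2:**
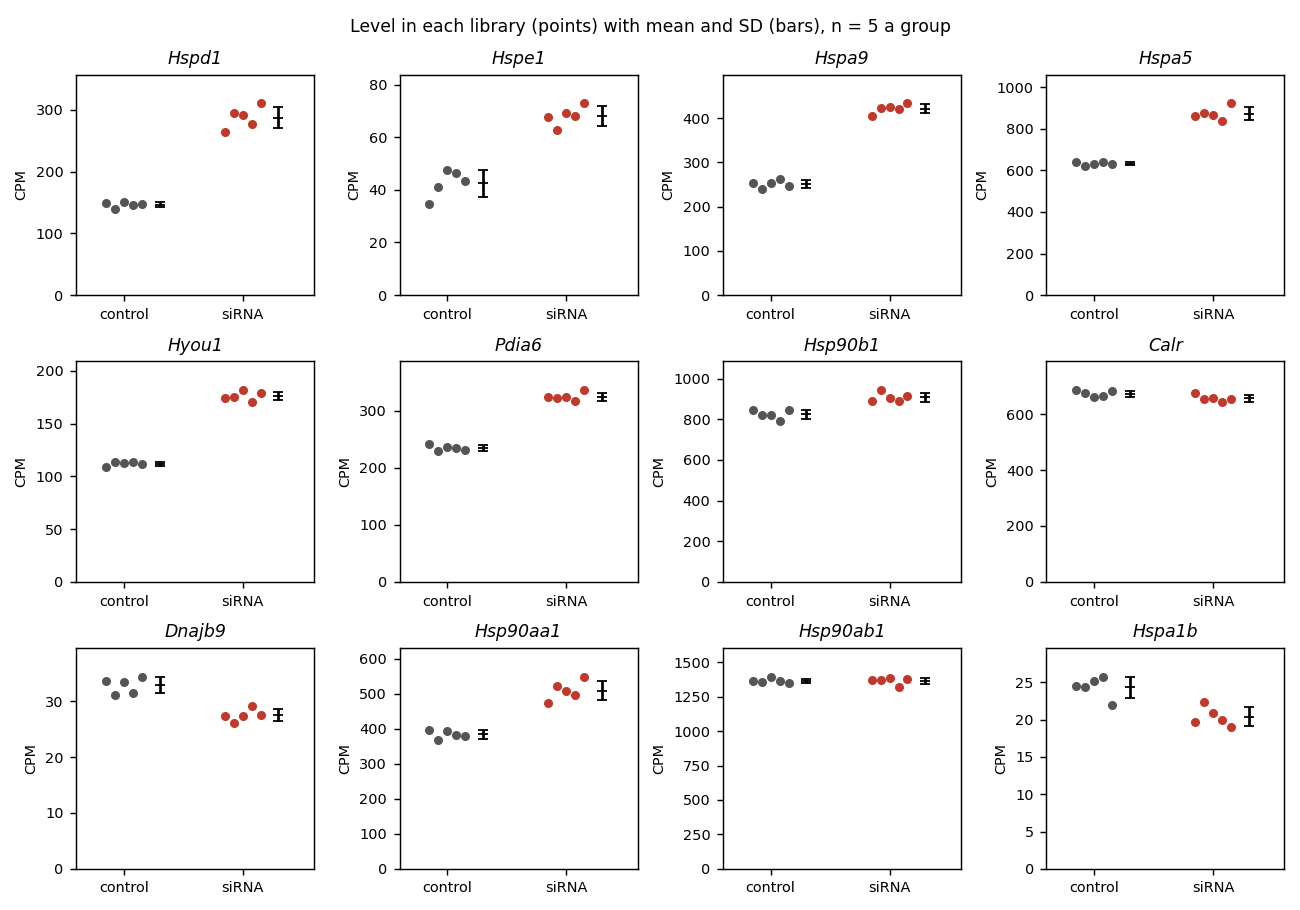
Levels in CPM (linear axes from 0) of 12 chaperone genes in the 5 control (grey) and 5 siRNA (red) libraries, 1 point per library, with the mean and SD beside each group. The siRNA points of Hspd1, Hspe1, Hspa9, Hspa5, Hyou1, Pdia6, Hsp90b1 and Hsp90aa1 lie above all of their control points, those of Dnajb9 lie below, and those of Calr, Hsp90ab1 and Hspa1b overlap with them.

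In the ER all tested members among the Hsp70 chaperones, the isomerases named Pdia and the listed response targets rose, against 36.1% of all tested genes. The J-domain proteins went both ways. Hspa5 (gene ID 14828, chr2:34772090-34776529) encodes BiP, the Hsp70 of the ER and the brake on its stress sensors. It had 642.3, 619.8, 632.8, 640.4 and 631.2 CPM in the control libraries and 862.7, 878.1, 865.2, 840.5 and 923.5 CPM in the siRNA libraries. The groups were far apart, and the rise was 1.38-fold (log2 0.46, SE 0.0240, adjusted p = 4.05e-21). Hyou1 (gene ID 12282, chr9:44379490-44392369) encodes GRP170, which exchanges nucleotide on BiP. It had 108.9 to 113.5 CPM in the control libraries and 170.8 to 181.6 CPM in the siRNA libraries and had the highest ER fold change (log2 0.65, SE 0.0263, adjusted p = 5.90e-25). Hspa13, a microsomal Hsp70 relative, rose from 71.7 ± 2.69 to 94.2 ± 2.56 CPM (log2 0.39). Hsp90b1, GRP94, the Hsp90 that folds integrins and Toll-like receptors, rose less. It had 845.5, 821.3, 819.5, 793.4 and 843.5 CPM in the control libraries and 888.0, 942.9, 906.2, 887.8 and 913.1 CPM in the siRNA libraries (log2 0.14, adjusted p = 1.69e-06), and 21.6% of its exonic bases overlap other annotated genes.

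All 4 tested disulfide isomerases with a Pdia symbol rose, with a median log2 fold change of 0.37. They form and reshuffle disulfide bonds. Relatives without that symbol, from a further list below and named with values known, went both ways. P4hb (log2 0.07), Tmx3 (0.17), Txndc11 (0.18), Erp29 (0.25), Erp44 (0.25) and Txndc5 (0.39) rose, and Tmx1 (0.02) was not called. Txndc12 (-1.29), Tmx4 (-0.22) and Tmx2 (-0.15) fell. Pdia6 (P5) had 241.0, 228.8, 236.3, 235.0 and 230.2 CPM in the control libraries and 324.6, 321.2, 324.4, 316.1 and 335.8 CPM in the siRNA libraries (log2 0.47, adjusted p = 4.14e-21). Pdia5 rose from 40.1 ± 1.34 to 57.3 ± 1.79 CPM (log2 0.52). Pdia3 (ERp57), the isomerase that works with the lectins, rose from 763 ± 11.4 to 926 ± 21.1 CPM (log2 0.28, with fractional counts in all 10 libraries), and Pdia4 (ERp72) from 153 ± 3.61 to 180 ± 3.16 CPM (log2 0.23). The lectin chaperones, which hold glycoproteins by their trimmed sugars, did not share the size of that rise. Canx, the membrane lectin, rose from 564 ± 14.6 to 633 ± 9.36 CPM (log2 0.17). Calr, the soluble lectin and a calcium store, had 686.0, 675.2, 659.9, 666.4 and 681.7 CPM in the control libraries and 677.7, 654.0, 656.6, 643.1 and 652.8 CPM in the siRNA libraries. Its groups overlapped (log2 -0.04, SE 0.0227, adjusted p = 0.143), and with upper-quartile scaling it was called lower (-0.05, adjusted p = 0.0300).

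The 5 genes listed as targets or factors of the unfolded protein response all rose, against 36.1% of all tested genes. Their median was 0.21, with only Manf over a log2 fold change of 0.3. This list is not complete, because genes of the response that belong to a chaperone family were counted with that family. Among those, Hspa5 rose (log2 0.46), Calr was not called (-0.04), and Dnajb9 (-0.26) and Dnajc3 (-0.11) fell. Manf, a secreted protein that binds BiP, rose from 118 ± 4.71 to 149 ± 5.15 CPM (log2 0.34). Xbp1, the factor whose RNA is spliced by IRE1, rose from 82.2 ± 1.82 to 95.8 ± 2.93 CPM (log2 0.22). The counts are per gene and do not separate spliced from unspliced Xbp1. Creld2, an ER protein known to be induced by ER stress, rose from 34.5 ± 1.53 to 39.8 ± 1.58 CPM (log2 0.21). Sdf2l1, a partner of the BiP cycle, and Herpud1, an adaptor of ER-associated degradation, overlapped between groups and rose by 0.16 (adjusted p = 0.0106) and 0.11 (adjusted p = 0.0174). Sdf2l1 no longer passed without siRNA replicate 5 (0.13, adjusted p = 0.0517), and Herpud1 no longer passed without siRNA replicate 1 (0.09, adjusted p = 0.0701).

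Of 11 tested ER J-domain proteins, 3 rose (27.3%) and 5 fell (45.5%), against 36.1% and 35.2% of all tested genes. Dnajb11 (ERdj3), the soluble helper of BiP, rose from 109 ± 3.04 to 135 ± 3.34 CPM (log2 0.31). Dnajb9 (ERdj4), which restrains IRE1 and is commonly read as a target of XBP1, went the other way. It had 33.7, 31.2, 33.5, 31.5 and 34.3 CPM in the control libraries and 27.4, 26.2, 27.3, 29.1 and 27.5 CPM in the siRNA libraries (log2 -0.26, SE 0.0444, adjusted p = 2.14e-06). Dnajc3 (P58IPK), an inhibitor of the kinase PERK, fell from 147 ± 5.25 to 137 ± 4.02 CPM (log2 -0.11, adjusted p = 6.94e-04). Dnajc1 fell from 47.6 ± 2.13 to 38.2 ± 1.00 CPM (log2 -0.32, with fractional counts in 9 libraries), and Dnajc14 from 182 ± 4.64 to 164 ± 2.52 CPM (log2 -0.16), with 25.5% of its exonic bases shared with Ormdl2. Dnajc10 (ERdj5), a disulfide reductase, had 260 and 259 CPM (log2 -0.01, adjusted p = 0.764). Dnajc25 rose by 0.19 and Dnajc16 by 0.15, Dnajb12 was at 0.06 with no call (0.09, adjusted p = 0.0432, without siRNA replicate 2), Dnajb14 was at -0.07 with no call, and Dnajc18 was at -0.10 with an adjusted p of 0.0483, a call lost without control replicate 1, 3 or 4 or siRNA replicate 3, 4 or 5 (log2 -0.11 to -0.08 over all libraries left out). That call was also lost with DESeq2 (adjusted p = 0.0859) and no filter (adjusted p = 0.0948).

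Some ER members hold a promoter word that the symbols did not use, the ER stress element, which is CCAAT and CCACG with 9 bases between them. It is bound by ATF6 or XBP1 together with NF-Y, and it is printed because the genes that hold it did not all move in 1 direction. Searched on both strands, it was in 7 of 24 ER windows (29.2%), in 0 of 53 cytosolic and 0 of 9 mitochondrial windows, and in 0.119% of all windows. The matches are printed on the strand of the gene, from RefSeq, GRCm38.p6, with the element in capitals and 3 flanking bases on each side. Where a match reads CGTGG before ATTGG, the element lies on the other strand.
Hspa5, chr2:34772025-34772043: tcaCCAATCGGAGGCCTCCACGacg
Pdia6, chr12:17266491-17266509: agaCCAATGAAAGGCGGCCACGgcg
Creld2, chr15:88819520-88819538: tctCGTGGCGAGCCTCAATTGGtcc
Canx, chr11:50325800-50325818: tgaCCAATCACCACGCTCCACGaag
Hsp90b1, chr10:86705638-86705656: agcCCAATCGCAAGGAGCCACGctt
Hsp90b1, chr10:86705533-86705551: gtgCGTGGTGAGGCACGATTGGtga
Calr, chr8:84847075-84847093: acgCGTGGTCGACCCTCATTGGccc
Dnajc3, chr14:118937827-118937845: caaCCAATCAGCGCCAACCACGacc
Of these 7 genes, Hspa5, Pdia6, Creld2, Canx and Hsp90b1 rose, Dnajc3 fell and Calr was not called. Their median log2 fold change was 0.17, and that of the 15 tested ER members whose windows lack the word was 0.15, with 9 higher and 3 lower. Of 10 tested genes that hold the word and are not chaperone members, 3 rose and 2 fell, with a median of -0.03. All these counts stand beside 36.1% of all tested genes higher and 35.2% lower. The match in Hspa5 ends 46 bases before the start, and its place in the 250 bases before the start, chr2:34771840-34772089 on the plus strand, is shown with CCAAT and CCACG in capitals.
Hspa5: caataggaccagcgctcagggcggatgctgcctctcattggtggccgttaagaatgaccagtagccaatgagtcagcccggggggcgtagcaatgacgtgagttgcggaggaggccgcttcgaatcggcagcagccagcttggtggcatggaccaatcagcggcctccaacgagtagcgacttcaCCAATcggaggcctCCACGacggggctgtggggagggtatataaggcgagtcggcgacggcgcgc
The same stretch holds the shorter word TGACGTG, a core bound by unfolded protein response factors, 150 bases before the start. That word was in 2.01% of all windows, and among ER members in Hspa5 and Dnajc25. A related element, ATTGG and CCACG with 1 base between them, was in 0.0365% of all windows and in 2 ER members, Herpud1 and Dnajb11. In Herpud1 it lies at chr8:94386377-94386387.
Herpud1: ctgATTGGGCCACGttg
The amino acid response word bound by ATF4, TGATG and AA with any base between, was in 3.97% of all windows and in 2 members, Hspa14 and Herpud1.

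In the cytosol the chaperonin, 1 of the 2 HSP90 genes and HSF1 rose, the abundant constitutive Hsp70 rose slightly, and of the heat-inducible Hsp70 pair 1 gene fell and 1 was not called. Hsf1, the factor that switches on heat shock genes, had 22.7, 26.3, 23.5, 24.6 and 21.9 CPM in the control libraries and 32.9, 29.9, 32.4, 31.0 and 31.9 CPM in the siRNA libraries (log2 0.41, SE 0.0483, adjusted p = 4.77e-10). Hspa1a and Hspa1b are the heat-inducible Hsp70 pair. Hspa1b had 24.5, 24.4, 25.2, 25.7 and 22.04 CPM in the control libraries and 19.7, 22.4, 20.9, 20.02 and 19.0 CPM in the siRNA libraries, and fell by 0.26 on the log2 scale (adjusted p = 3.33e-05). Its groups overlapped through control replicate 5 and siRNA replicate 2. Hspa1a had 5.72 ± 0.818 and 5.61 ± 0.569 CPM (log2 -0.03, adjusted p = 0.807). Both genes are uncertain, because they are near-identical copies whose counts were fractional in all 10 libraries. Hspb1 (HSP27), a small heat shock protein that binds unfolding proteins without ATP, had 2.38 ± 0.267 and 2.63 ± 0.314 CPM (log2 0.14, adjusted p = 0.353). Dnajb1 (HSP40), the heat-inducible partner of Hsp70, rose from 64.3 ± 1.44 to 68.6 ± 1.74 CPM (log2 0.09, adjusted p = 0.00810), with groups that overlapped.

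Hspa8 (HSC70), the constitutive Hsp70, had the highest level of all members per kilobase of transcript, 716.4 CPM per kilobase in control and 796.3 in siRNA libraries. In CPM it had 1739, 1698, 1743, 1743 and 1653 in the control libraries and 1868, 1885, 1929, 1852 and 1997 in the siRNA libraries (log2 0.15, SE 0.0237, adjusted p = 2.71e-07). Hsp90ab1, the constitutive HSP90, had 1366, 1355, 1393, 1365 and 1351 CPM in the control libraries and 1372, 1370, 1384, 1321 and 1376 CPM in the siRNA libraries. The groups overlapped, and the change was -0.0016 on the log2 scale (SE 0.0221, adjusted p = 0.953), with a sign that flipped between settings. Hsp90aa1, the more inducible HSP90, had 396.2, 367.1, 393.6, 380.6 and 380.4 CPM in the control libraries and 473.9, 520.9, 506.4, 495.1 and 547.5 CPM in the siRNA libraries, a rise of 0.41 on the log2 scale (SE 0.0302, adjusted p = 1.74e-12). Per kilobase, Hsp90aa1 was therefore 17.7% ± 0.357 of the cytosolic HSP90 pair in control and 22.3% ± 0.898 in siRNA libraries (SD, n = 5 each). The groups did not overlap, and the two-sided exact permutation test gave p = 0.00794, the smallest that 5 libraries against 5 allow.

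The Hsp110 exchange factors, which reset Hsp70, were split. Hspa4 rose from 187 ± 4.75 to 215 ± 6.26 CPM (log2 0.20) and Hsph1 from 74.4 ± 3.63 to 84.0 ± 3.90 CPM (log2 0.17). Hspa4l fell from 302 ± 5.06 to 283 ± 7.64 CPM (log2 -0.09). Hspa14, an Hsp70 of the ribosome-associated complex, rose from 82.5 ± 1.65 to 93.5 ± 1.87 CPM (log2 0.18, with 17.9% of its exonic bases shared with Gm45902), and its J-domain partner in that complex, Dnajc2, rose from 48.3 ± 1.37 to 64.6 ± 3.53 CPM (log2 0.42). Hspa2, the Hsp70 known for its role in spermatogenesis, had 15.1, 17.7, 15.8, 14.7 and 16.1 CPM in the control libraries and 10.1, 10.5, 10.4, 8.89 and 8.75 CPM in the siRNA libraries. It had the lowest fold change in the cytosol (log2 -0.71, SE 0.0692, adjusted p = 3.22e-12). Hspa1l was called higher (2.19 to 3.18 CPM, log2 0.54), but 71.9% of its exonic bases overlap Gm10501.

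Of 16 tested cytosolic J-domain proteins, 7 rose and 4 fell, with a median log2 fold change of 0.04. Dnaja1, an abundant farnesylated partner of HSC70, rose from 287 ± 6.26 to 353 ± 6.12 CPM (log2 0.30, with 11.8% of its exonic bases in overlap), while its relative Dnaja2 had 198 ± 4.78 and 197 ± 2.84 CPM (log2 -0.01, adjusted p = 0.762). Dnajc7, which bridges Hsp70 and HSP90, rose from 129 ± 4.82 to 168 ± 5.50 CPM (log2 0.37), with fractional counts in all 10 libraries. Dnajc21, which acts in ribosome assembly, rose from 26.9 ± 0.591 to 36.1 ± 1.57 CPM (log2 0.42). Dnaja4 rose by 0.11, with 44.6% of its exonic bases shared with Wdr61. Dnajc24, which takes part in the making of diphthamide, had 12.7 ± 0.667 and 14.1 ± 0.905 CPM (log2 0.15, adjusted p = 0.0310), a call lost without control replicate 2, 3 or 4 or siRNA replicate 2, 3 or 4 (adjusted p from 0.0505 to 0.0786), and also with DESeq2 (0.0726) and upper-quartile scaling (0.0539). Dnajb4 fell from 36.8 ± 1.66 to 25.5 ± 1.08 CPM (log2 -0.52), Dnajc9, a chaperone of histones, from 79.1 ± 4.67 to 57.8 ± 2.18 CPM (log2 -0.45), Dnajb2 from 24.6 ± 0.796 to 21.4 ± 1.23 CPM (log2 -0.20) and Dnajc12 from 2.55 to 1.67 CPM (log2 -0.61). Dnajc8, Dnajc17, Dnajb5 and Dnajb6 lay between -0.06 and 0.06 with no call, though Dnajb6 passed without control replicate 1 or 5 or siRNA replicate 2 or 4 (0.06 to 0.07). Among the small heat shock genes, Hspb6 fell from 7.34 ± 0.809 to 5.11 ± 0.213 CPM (log2 -0.52), and Hspb8 had 1.53 and 1.71 CPM (log2 0.17, adjusted p = 0.413). Over all compartments, 16 of the 37 tested J-domain genes rose (43.2%) and 11 fell (29.7%), with a median of 0.06, shares near the 36.1% and 35.2% of all tested genes.

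The chaperonin CCT, also called TRiC, is a double ring of 8 different subunits that folds actin and tubulin. Of its 8 ubiquitous subunit genes, 7 rose (87.5%, against 36.1% of all tested genes), by 0.25 to 0.49 on the log2 scale, and Cct4 was not called. Of the 7, 2 (Cct3 and Cct6a) passed the test for a change of more than 25%, by which 10.6% of all tested genes were higher. Cct3 (gene ID 12462, chr3:88297135-88321766) had 190.9, 186.3, 192.9, 195.5 and 176.1 CPM in the control libraries and 256.9, 260.5, 266.4, 265.7 and 273.1 CPM in the siRNA libraries (log2 0.49, SE 0.0266, adjusted p = 2.31e-20). Cct6a rose by 0.44, Cct7 by 0.36, Cct2 by 0.35, Cct8 by 0.34, Cct5 by 0.33 and Tcp1, the first subunit, by 0.25. In each of these 7 all siRNA libraries were above all control libraries, as in 28.8% of all tested genes. For Tcp1 the counts were fractional in all 10 libraries, and 20.6% of its exonic bases overlap Acat3 and Mrpl18. For Cct6a 18.4% overlap Psph, and for Cct8 the counts were fractional in 8 libraries. Cct4 had 208.4, 206.9, 210.8, 208.2 and 204.6 CPM in the control libraries and 196.2, 199.6, 201.9, 207.2 and 203.9 CPM in the siRNA libraries (log2 -0.04, SE 0.0243, adjusted p = 0.117), and it was called lower with upper-quartile scaling (-0.06, adjusted p = 0.0291). Cct4 was 81.7% ± 1.06 of the mean CPM of the other 7 in control and 62.0% ± 1.05 in siRNA libraries (SD, n = 5 each). This ratio was chosen after the values of the subunits were seen, and it describes them with no test. The levels per kilobase in control libraries ran from 83.5 CPM for Cct7 and 83.7 for Cct4 over 95.3 for Cct3, 119.8 for Cct8, 128.9 for Tcp1 and 140.3 for Cct5 to 152.3 for Cct2, with no transcript length for Cct6a.

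**Figure D3:**
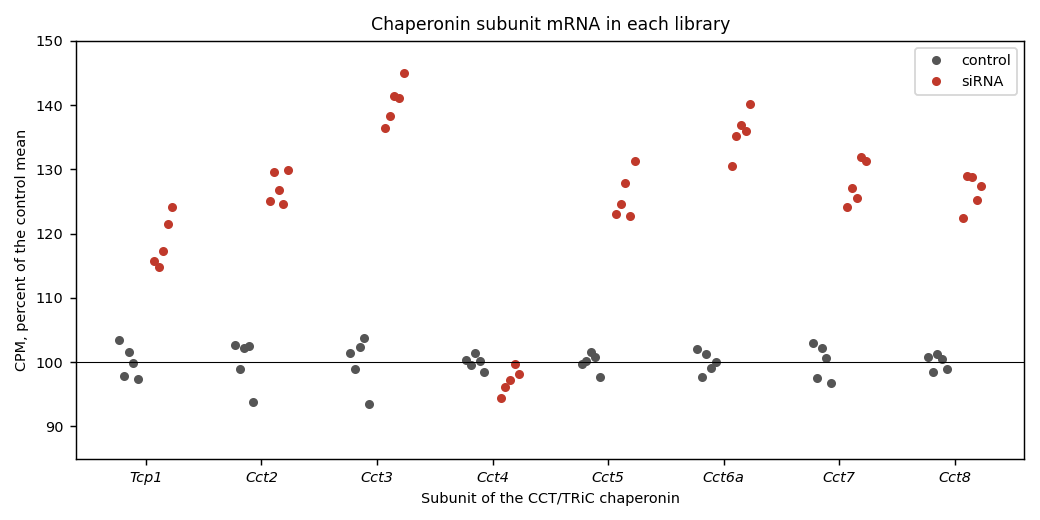
CPM of the 8 chaperonin subunits in the 5 control (grey) and 5 siRNA (red) libraries as a percent of each gene's control mean (vertical axis, drawn from 85 to 150), 1 point per library. For 7 subunits the siRNA points lie above all control points, and for Cct4 the groups overlap.

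The 6 tested members in other places were the following. Hspa12a and Hspa12b, distant relatives of Hsp70, both fell, Hspa12b, which is known from endothelium, from 85.4 ± 2.79 to 62.0 ± 2.38 CPM (log2 -0.46) and Hspa12a from 7.88 ± 1.03 to 4.50 ± 0.213 CPM (log2 -0.81). Dnajc13 (RME-8), which acts on endosomes, rose from 230 ± 5.27 to 293 ± 7.02 CPM (log2 0.35). Dnajc5, a J-domain protein of secretory vesicles, rose from 163 ± 2.52 to 179 ± 3.09 CPM (log2 0.13). Hspb11, a small heat shock protein by name that belongs to the intraflagellar transport complex of cilia, rose from 8.59 ± 0.770 to 10.6 ± 0.654 CPM (log2 0.31, with fractional counts in all 10 libraries), and Dnajc27 was at 0.15 with an adjusted p of 0.0598 (0.22, adjusted p = 0.00798, without control replicate 3, 0.17, adjusted p = 0.0447, without siRNA replicate 1 and 0.16, adjusted p = 0.0443, with no filter).

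Other genes of the folding pathways were counted in 6 lists by the same test, in which 36.1% of all tested genes rose and 35.2% fell. Among 15 tested ER stress sensors and factors, 11 rose (73.3%) and 2 fell (13.3%), with a median of 0.28. Atf4, the factor made when the kinases of the integrated stress response are active, had 137.6, 127.7, 136.0, 143.2 and 126.2 CPM in the control libraries and 242.5, 244.5, 251.5, 254.4 and 269.6 CPM in the siRNA libraries (log2 0.91, adjusted p = 1.97e-20). Ppp1r15a (GADD34), which brings the phosphatase back to eIF2α, rose from 28.6 ± 1.09 to 46.4 ± 1.08 CPM (log2 0.70), and Creb3l2, a factor cut free from the ER membrane, from 300 ± 9.02 to 457 ± 6.47 CPM (log2 0.61). The 3 sensors, named here for their role with values known, differed. Ern1 (IRE1) rose from 22.8 ± 0.774 to 27.8 ± 1.58 CPM (log2 0.28), Atf6 had 71.7 ± 1.58 and 74.5 ± 1.90 CPM (log2 0.06, adjusted p = 0.110), and Eif2ak3 (PERK) fell from 47.1 ± 1.70 to 42.4 ± 1.55 CPM (log2 -0.15, adjusted p = 6.22e-04). Ddit3 (CHOP) and Trib3, targets of ATF4 named on the same footing, rose by 0.91 and 0.37.

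In the list of ER oxidative folding and glycan quality control, 20 of 32 rose (62.5%) and 6 fell (18.8%), with a median of 0.16. Ganab, the catalytic subunit of glucosidase II, which trims the sugars read by calnexin and calreticulin, had 194.4 to 213.7 CPM in control and 380.2 to 396.6 CPM in siRNA libraries (log2 0.92, adjusted p = 1.59e-30). Lman1 (ERGIC-53), a cargo lectin for export from the ER, rose from 136 ± 2.71 to 215 ± 4.01 CPM (log2 0.66). Txndc12, a thioredoxin-like ER protein, fell from 61.8 ± 2.12 to 25.3 ± 1.10 CPM (log2 -1.29, adjusted p = 8.28e-29). In ER-associated degradation, which hands misfolded proteins to the proteasome, 12 of 22 rose (54.5%) and 5 fell (22.7%), with a median of 0.09, with the ubiquitin-conjugating enzymes Ube2j2 at 0.33 and Ube2g2 at -0.24, both past the test.

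The list of mitochondrial chaperones and proteases outside the 91 has 18 genes and also holds Atf5, which is neither. Of these 18, 13 rose (72.2%, Atf5 included) and 2 fell (11.1%), or 1 fell without siRNA replicate 3, with a median of 0.16. Atf5, a factor of the mitochondrial stress response, had 23.3, 21.7, 24.5, 26.1 and 21.5 CPM in the control libraries and 45.7, 44.6, 44.7, 46.1 and 45.2 CPM in the siRNA libraries (log2 0.95, adjusted p = 2.62e-22). The inner-membrane protease Afg3l2 rose by 0.35 and the prohibitin Phb2 by 0.31. Named for their role with values known, the matrix protease Lonp1 rose by 0.25, and Clpp, the peptidase of another, by 0.39, while Clpx, the ATPase partner of Clpp, fell by 0.11 (adjusted p = 0.00675). Grpel1, which exchanges nucleotide on mortalin, rose by 0.18, and Htra2, a protease of the intermembrane space, fell by 0.15 (adjusted p = 0.0159, or 0.0751 without siRNA replicate 3). Prefoldin carries new actin and tubulin to the chaperonin. Among 16 genes of prefoldin and of chaperonin and tubulin cofactors, 9 rose (56.2%) and 2 fell (12.5%), with a median of 0.10. In this list 1 fell without control replicate 2, 3 or 5 or siRNA replicate 1, 2, 4 or 5. The prefoldin subunits Pfdn4 and Pfdn1 rose by 0.77 and 0.57, and the tubulin cofactor Tbcb by 0.40. Among 28 cytosolic co-chaperones, 12 rose (42.9%) and 9 fell (32.1%), shares near those of all tested genes, with a median of 0.01, and with Ppid at 0.47, the HSP90 co-chaperone Ptges3 (p23) at 0.36 and the outer-membrane immunophilin Fkbp8 at -0.45, all past the test.

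**Figure D4:**
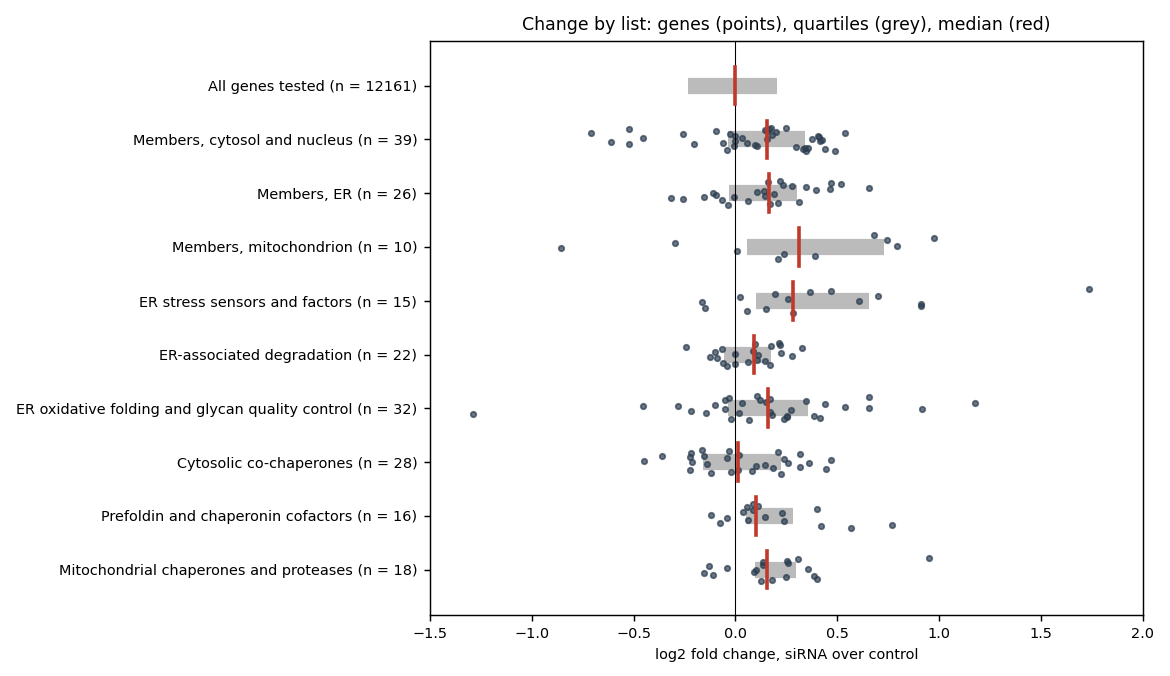
Log2 fold change (siRNA over control, horizontal axis) of the tested genes of the 3 compartments and the 6 further lists, 1 point per gene, with the quartiles as grey bars and the median as a red line, below the same bar and line for all 12161 tested genes. The medians run from 0.01 for the cytosolic co-chaperones to 0.31 for the mitochondrial members, beside -0.0019 for all genes.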

How the data were processed

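Gene counts of 5 control and 5 siRNA libraries were analysed. The deposited values are expected counts per gene from RSEM, which shares reads among genes they fit equally well, so some are fractional. The submitters' processing notes list the genome GRCm38.p6 and the tools RSEM 1.3.1, HISAT2 2.2.1 and Bowtie2 2.4.5. No source used here gives the annotation or the strand setting. After rounding, edgeR 4.0.16 (R 4.3.3) was run with filterByExpr at a minimum count of 10, TMM scaling, the robust quasi-likelihood F test and a Benjamini-Hochberg threshold of 0.05 over 12161 genes. In addition, glmTreat tested whether the level in either group was more than 25% above that in the other. The filter removed 4090 genes. The script was tested on simulated counts. CPM are counts per 1000000 on TMM-adjusted library sizes, and standard errors were derived from the fold change and its F statistic. Alternatives were DESeq2 1.42.0, voom in limma 3.58.1, other scalings and filters, a replicate block and leaving out each library. Of the gene IDs, 16202 matched the RefSeq table, which gave coordinates. Transcript lengths, for levels per kilobase, came from GENCODE M21 for 90 of 91 members. The common biological coefficient of variation, the spread between libraries beyond counting error, was 2.85%.

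All members are described by role. Values per library are given for those the results turn on, among genes named by rule: Kdr, 38 fixed names, the 4 members with the largest rise and fall in each compartment (mean of at least 5 CPM) and the 3 genes with the smallest adjusted p in each further list, of which 1 is not reported here. The members and lists were chosen with earlier results of these data known.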

Additional observations from a re-analysis of the deposited data

Results flagged for a closer look

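In 146 groups of 5 libraries, those of the 73 genes named by rule, 1 library stood apart from the other 4 in 9 cases by Dixon's criterion (gap over range above 0.71), and chance flags about 1 in 20 groups. Pdia4 had 185.5 CPM in siRNA replicate 3 against 177.8 to 179.2 CPM in the others. Hsp90ab1 had 1321 CPM in siRNA replicate 4 against 1370 to 1384 CPM. Dnajb1 had 66.83 CPM in control replicate 2 against 63.41 to 63.93 CPM. Dnajc30 had 9.824 CPM in siRNA replicate 3 against 11.12 to 11.24 CPM, and Hspb11 had 11.8 CPM there against 10.24 to 10.48 CPM. Among genes of the further lists, Creb3l2 had 284.3 CPM and Phb2 109.4 CPM in control replicate 5, against 300.02 to 306.09 and 119.2 to 121.3 CPM in the others. Lman1 had 141.3 CPM in control replicate 4 against 135.0 to 135.5 CPM, and Fkbp8 had 187.5 CPM in control replicate 2 against 174.3 to 176.9 CPM.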

How the results depend on the processing

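Asking for 1 group more than 25% above the other left 2791 genes changed, with 10.6% of all tested genes higher and 12.3% lower. Of 81 members, 17 were higher and 8 lower (cytosol 7 and 5 of 39, ER 5 and 0 of 26, mitochondrion 5 and 1 of 10, other places 0 and 2 of 6). In the further lists the counts were 6 higher and 0 lower of 15 (ER stress), 0 and 0 of 22 (ER-associated degradation) and 8 and 2 of 32 (ER oxidative folding). They were 2 and 1 of 28 for co-chaperones, 4 and 0 of 16 for the prefoldin list and 1 and 0 of 18 for the mitochondrial list, where the 1 was the factor Atf5. Fewer calls follow by construction of the stricter test. Other settings called 62 to 65 of the 65 members again. With a mean of at least 5 CPM the mitochondrial median was 0.38 and 1 member fell. With DESeq2 or no filter 1 gene of the prefoldin list fell. Leaving out 1 library gave cytosolic medians of 0.10 to 0.16, 1 to 2 lower genes of the prefoldin list and 1 to 3 lower genes of the further mitochondrial list. No pairing of the libraries by replicate number was seen (same-number correlations -0.0745 to 0.0198, 0 libraries closest to their own number). Correlations this weak cannot exclude a pairing, which the labels do not give. A replicate block gave 8537 genes changed, with 48 members higher and 16 lower, without Dnajc18 (-0.10, adjusted p = 0.0598). Upper-quartile scaling moved the median of all genes to -0.02 and called 4175 genes higher and 4530 lower. Under it Calr (-0.05, adjusted p = 0.0300) and Cct4 (-0.06, adjusted p = 0.0291) were called, and Dnajc24 (0.14, adjusted p = 0.0539) was not.

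Dnajb6 (0.06 to 0.07) passed with no filter or without control replicate 1 or 5 or siRNA replicate 2 or 4, and Dnajb12 (0.09) without siRNA replicate 2. Signs of uncalled genes flipped for Hsp90ab1 (0.004945 with no filter, -0.006289 to 0.0105 with 1 library left out), Dnajc17 (0.0021 with voom, 0.003283 with no filter, -0.034 to 0.071 with 1 library left out) and Dnajc19 (-0.007743 with upper-quartile factors, -0.009242 to 0.023 with 1 library left out), and, with 1 library left out, for Hspa1a (-0.088 to 0.025), Dnaja2 (-0.016 to 0.0030) and Dnajc10 (-0.013 to 0.00099). The cause of these shifts was not tested. Genes under 5 CPM carry the widest errors (Hspb8, SE 0.179), and overlapping genes could not be separated without the strand setting.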
